A study of Mus musculus with 2 samples.

Results

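The 74 antisense noncoding RNAs described here are the genes that GENCODE M21 types as antisense and that had at least 1 TPM in the gene tables of both gastrocnemius libraries. TPM is a length-scaled share of the transcripts in a library. The annotation holds 2959 antisense genes among 55536 Ensembl genes, and 976 of the 2959 had a read in either library. The members were chosen by their level. Their levels, their ratios to other genes and their ratios between the libraries are therefore a description and carry no test. Total RNA of the gastrocnemius, the main calf muscle, came from 2 male B6CASTF1/J mice (an F1 hybrid of C57BL/6 and CAST strains) aged 36 days from The Jackson Laboratory, labelled biological replicates 1 and 2. No treatment, transgene or second genotype is labelled, so the series is 1 group with n = 2, and no p-value can be had. Both replicates carry the same donor entry in the labels, so the spread between them may be partly technical. They were counted as 2 animals because their biosample labels number different mice.

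An antisense RNA is transcribed from the DNA strand opposite to that of another gene, so the RNAs of the pair are complementary wherever their exons meet. Such RNAs can start beside the promoter of the other gene, can lie wholly within its introns, or can run into its tail. Some act in cis on the gene they overlap, the imprinted silencer Airn being a textbook case, others host microRNAs, and for most no function is known.

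The libraries held 36952277 and 38754338 expected counts (reads per gene as estimated by the quantifier). A count of 0 allows up to 3 reads, or 0.0812 and 0.0774 CPM, for counting error only. All 6 muscle fibre markers, among them the muscle actin Acta1 and the creatine kinase Ckm, stood at 599.99 TPM or above in both libraries. The libraries differed in markers of other cells. Summed Schwann cell markers went from 476 TPM in replicate 1 to 109 in replicate 2 (9 of 9 lower in replicate 2), tendon cell markers from 169 to 110, fibroblast markers from 1737 to 901 and macrophage markers from 33.0 to 20.3, while adipocyte markers went from 29.3 to 52.3. None of these markers was listed at 0. In bulk tissue, fewer cells of a type and less RNA per cell cannot be told apart.

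The members made up 2.50% of annotated antisense genes. Of 5854 lincRNA genes 111 (1.90%) reached the same level, and of 22028 protein-coding genes 10041 (45.6%). Another 33 antisense genes reached 1 TPM in only 1 of the libraries. Most members have no descriptive name: 38 carry a Gm and 13 a Rik symbol, and 16 are named after a neighbouring gene with the ending os. Together they summed to 416 TPM in replicate 1 and 440 in replicate 2 (428 ± 17.1, SD, n = 2), and they took 0.0368% ± 0.000361 of the counts. The median member had a mean of 2.46 TPM and 69.8 counts. Mean counts ran from 10 for Gm47320 to 2359 for Atcayos, and 30 members had fewer than 50 counts, so many single levels rest on few reads. Of the members 13 had a mean of at least 10 TPM and 34 a mean under 2 TPM. The 12 highest held 60.3% ± 2.51 of the summed TPM, so a short list of RNAs dominated the set.

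**Figure D1:**
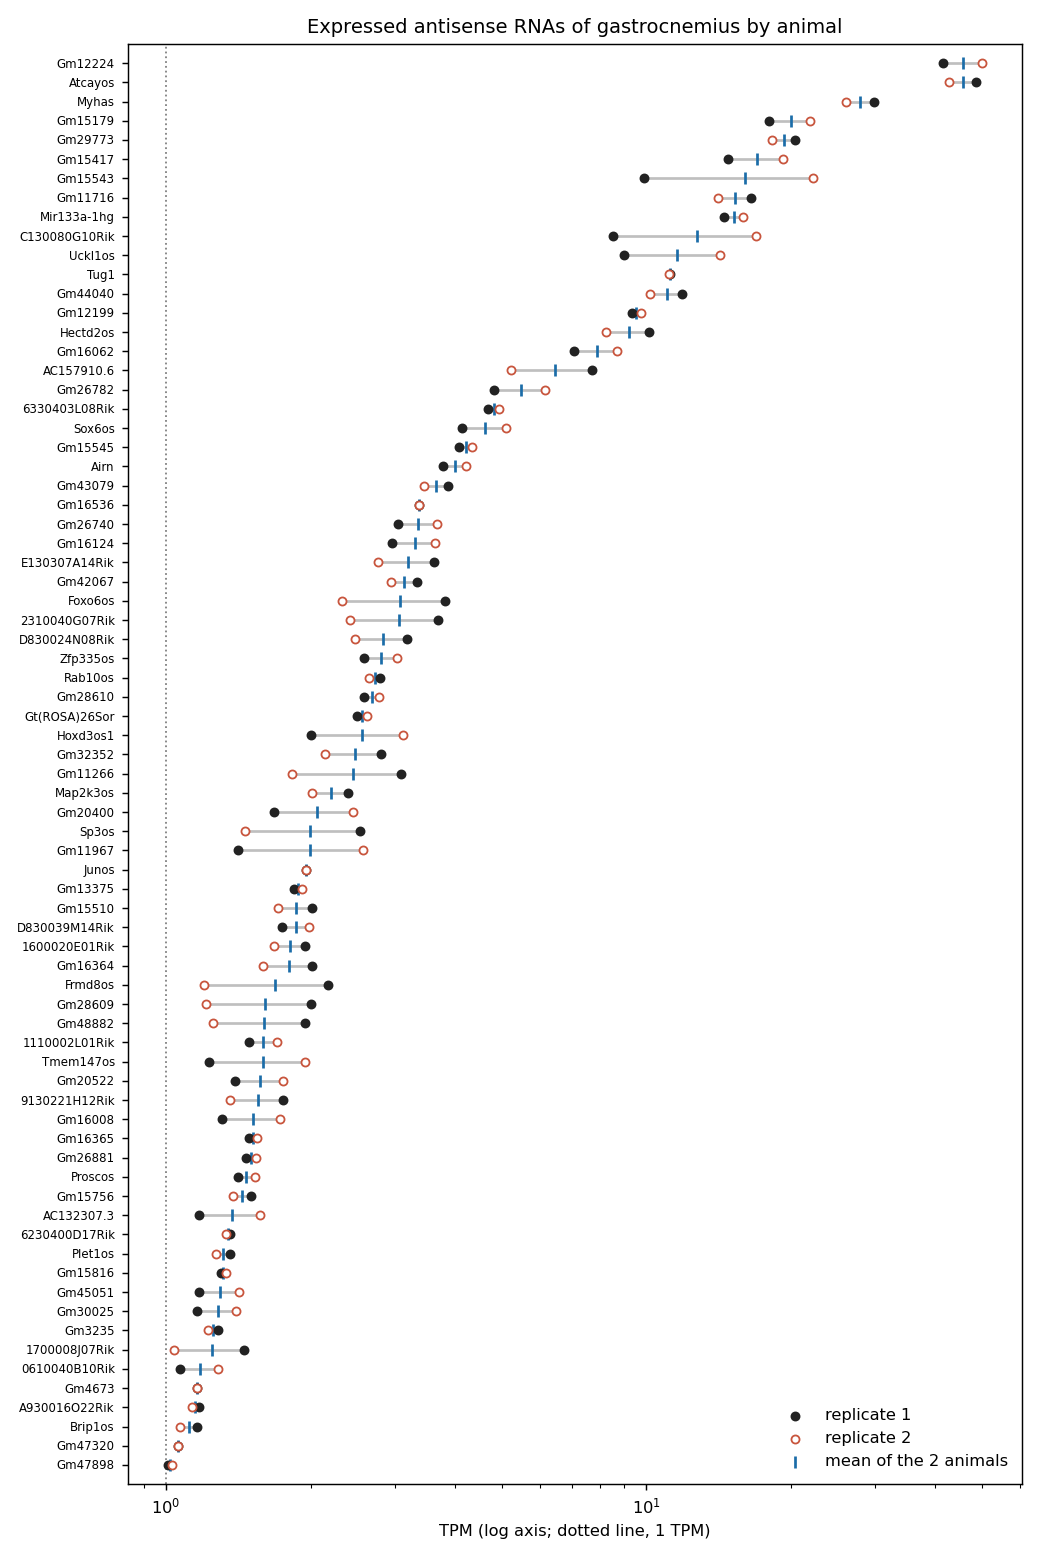
Level of each of the 74 antisense RNAs in TPM (log axis), with a filled point for replicate 1, an open point for replicate 2 and a bar for their mean. Gm12224 and Atcayos stand at the top with means of 45.8 and 45.7 TPM, and the members end at the dotted line of 1 TPM that the selection set.

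Just inside the threshold were Gm47898 (1.01 and 1.03 TPM in replicates 1 and 2), Gm47320 (1.06 and 1.06 TPM) and 1700008J07Rik (1.45 and 1.04 TPM). Just outside were Gm15635 (1.21 and 0.99 TPM), Gm15491 (0.97 and 1.11 TPM) and Gm31105 (0.97 and 1.02 TPM). The genes on either side of the threshold overlapped in level.

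Gm12224, on the minus strand of chromosome 11 (54340369-54353479, mm10), had 41.6 TPM in replicate 1 and 50.01 in replicate 2. It lies wholly within Acsl6, which encodes an acyl-CoA synthetase of long-chain fatty acids and had 8.57 and 8.37 TPM. The antisense RNA was above the overlapped gene in both animals, at a log2 ratio of 2.41 ± 0.21 on the log2(TPM + 0.1) scale used for all ratios below. All 202 bases in which its exons met exons of Acsl6 were coding. Its leading transcript carried 94.4% ± 1.22 of its expression. An exon of that transcript (chr11:54352977-54353026) is printed below as an example of such contact, with the bases complementary to Acsl6 coding sequence in capitals.
Gm12224 exon: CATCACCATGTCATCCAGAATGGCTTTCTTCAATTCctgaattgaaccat

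Atcayos, on the plus strand of chromosome 10 (81194609-81210877), had 48.7 and 42.8 TPM. Its tail runs into that of Atcay, the gene of the brain protein caytaxin, which had 0.01 TPM in replicate 1 and was listed at 0 in replicate 2. With Atcay so low, no fold is given. Within its span, on the other strand, lies Nmrk2, a nicotinamide riboside kinase of muscle, at 14.5 and 31.1 TPM. Nmrk2 was higher in replicate 2 whereas Atcayos was lower there. The RefSeq promoter window (250 bases before to 50 after the start, GRCm38.p6, which is mm10) of Atcayos on the plus strand, chr10:81194441-81194740, held a match to the MEF2 motif 63 bases before the start and TATAAA 28 bases before it. Both are in capitals.
Atcayos promoter: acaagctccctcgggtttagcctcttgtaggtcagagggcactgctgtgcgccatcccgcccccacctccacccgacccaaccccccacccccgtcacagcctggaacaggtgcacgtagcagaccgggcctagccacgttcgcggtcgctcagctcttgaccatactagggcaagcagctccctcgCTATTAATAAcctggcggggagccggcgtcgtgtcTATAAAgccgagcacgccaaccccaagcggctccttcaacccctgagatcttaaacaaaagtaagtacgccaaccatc

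The next members down lay beside genes of the contractile apparatus. Myhas, on the minus strand of chromosome 11 (67211256-67237573), had 29.9 and 26.02 TPM. Its tail overlaps Myh1, the IIX myosin heavy chain of fast fibres, which had 1300.0 and 839 TPM. The log2 ratio of Myhas over Myh1 was -5.22 ± 0.31. The credibility intervals of Myhas overlapped between the animals, whereas those of Myh1 did not. The leading transcript carried 85.6% ± 4.01 of the expression. It starts 748 bases from the start of Myh4, the IIB myosin heavy chain, and runs away from it. Myh4 had 10598 TPM in replicate 1 and 11754 in replicate 2. Myhas therefore lies between a myosin gene it points away from and one whose end it enters. The stretch of that transcript complementary to Myh1 coding sequence, 150 bases at chr11:67224317-67224466 on the minus strand, is shown in full capitals.
Myhas over Myh1: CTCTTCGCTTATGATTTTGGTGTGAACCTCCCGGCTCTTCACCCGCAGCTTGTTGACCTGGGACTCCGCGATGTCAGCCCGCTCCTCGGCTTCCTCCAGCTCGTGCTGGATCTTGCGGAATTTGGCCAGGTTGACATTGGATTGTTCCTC

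Gm15179, on the minus strand of chromosome 1 (75368212-75375012), had 18.1 and 21.95 TPM. Its end meets exons of Des, the muscle intermediate filament gene desmin, over 220 bases, none of them coding. Des had 739.7 and 747 TPM, a log2 ratio of -5.22 ± 0.19. The leading transcript of Gm15179 starts 285 bases from the start of Speg, a kinase gene of striated muscle at 79.9 and 93.1 TPM, and points away from it. Its RefSeq promoter window on the minus strand, chr1:75374966-75375265, held a MEF2 match 240 bases before the start, in capitals. The match lies between the starts of Gm15179 and Speg, so it cannot be assigned to either gene.
Gm15179 promoter: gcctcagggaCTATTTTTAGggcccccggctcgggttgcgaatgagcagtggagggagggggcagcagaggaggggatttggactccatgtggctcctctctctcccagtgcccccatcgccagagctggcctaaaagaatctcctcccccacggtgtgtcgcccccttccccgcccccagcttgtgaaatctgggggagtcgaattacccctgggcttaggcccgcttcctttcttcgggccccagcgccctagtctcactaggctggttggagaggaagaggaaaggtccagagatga

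C130080G10Rik, on the plus strand of chromosome 2 (114054335-114064868), is typed antisense but overlaps no gene on the other strand. It had 8.53 TPM in replicate 1 and 17.0 in replicate 2. Its gene start lies 787 bases from that of Actc1, the cardiac actin, and the genes point away from each other. Actc1 had 891 and 1767 TPM. The log2 ratio of replicate 2 over replicate 1 was 0.98 for the antisense gene and 0.99 for Actc1, so both were higher in replicate 2 by nearly the same factor. The match is not particular to this pair, since some slow fibre genes stood higher by a like factor in the same library. Among them were the slow myosin Myh7 (38.3 and 78.5 TPM, 1.03), Myl3 (1.01), Tnnt1 (1.02), Tnni1 (1.00) and Tnnc1 (1.04). Other genes used by slow fibres differed less, among them Atp2a2 (0.74), Myl2 (0.47), Casq2 (0.10) and Myoz2 (0.08). Csrp3 was lower in replicate 2 (-1.27). The RefSeq promoter window of C130080G10Rik on the plus strand, chr2:114054146-114054445, held a MEF2 match 177 bases before the start and the E-box CAGCTG 13 bases before it, in capitals. Both matches lie between that start and the start of Actc1, so they cannot be assigned to either gene.
C130080G10Rik promoter: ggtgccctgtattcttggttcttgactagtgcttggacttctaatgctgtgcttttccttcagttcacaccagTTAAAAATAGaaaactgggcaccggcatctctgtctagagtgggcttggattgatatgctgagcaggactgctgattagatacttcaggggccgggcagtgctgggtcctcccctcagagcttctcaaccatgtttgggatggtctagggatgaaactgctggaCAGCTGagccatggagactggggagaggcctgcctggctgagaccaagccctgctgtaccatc

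Other members among the 12 highest were annotated over genes that are not specific to muscle. Gm29773 had 20.4 and 18.3 TPM, above the nuclear pore gene Nup133 at 2.79 and 2.68 TPM, a log2 ratio of 2.78 ± 0.07. Gm15417 had 14.8 and 19.2 TPM over Zbtb7b, a zinc finger transcription factor at 7.59 and 9.50 TPM. Tug1, a widely expressed long noncoding RNA, had 11.2 TPM in both libraries and Morc2a, a chromatin ATPase gene, 5.95 and 6.75. In these 3 pairs the antisense RNA was above the overlapped gene in both animals. The leading transcripts of Gm15417 and Tug1 do not reach the overlapped gene, but they carried only 31.2% ± 6.45 and 38.6% ± 6.98 of the expression. That of Gm15417 was listed at 0 in both libraries of the second transcript table. Gm11716 (16.6 and 14.1 TPM) lies in an intron of the lipid transfer gene Pitpnc1 (24.96 and 24.3 TPM) and was below it in both. Uckl1os had 8.98 and 14.2 TPM against 11.4 and 10.1 for Uckl1, a uridine-cytidine kinase gene, so the order of the pair was reversed between the animals. In the second transcript table Uckl1os was above Uckl1 in both libraries (17.2 and 23.6 against 16.7 and 14.4 TPM).

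Mir133a-1hg, on chromosome 18, had 14.6 and 15.9 TPM. It lies within Mib1, a ubiquitin ligase of Notch ligands at 11.6 and 10.6 TPM, and shares no exon base with it. On its own strand its span holds Mir133a-1 and Mir1a-2, microRNA genes known for their abundance in striated muscle, and neither meets its exons. The second transcript table put it at 4.77 and 7.12 TPM, well under the gene table. Gm15816, within the ankyrin gene Ank1, holds Mir3107 on its own strand and Mir486 on the other. Gm15816 had 1.30 and 1.33 TPM and Ank1 228 and 224 TPM. In all, 4 members held a microRNA gene within their span.

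Of the 74 members 69 overlapped a gene on the other strand. Each was paired with the gene of longest overlap, protein-coding genes first, which gave 68 distinct genes, all protein-coding. Of these members 18 overlapped more than 1 gene. The other 5 were C130080G10Rik, Map2k3os, Gm13375, Foxo6os and Gm43079. Map2k3os (2.39 and 2.01 TPM) starts 166 bases from Map2k3, a MAP kinase kinase gene at 74.7 and 77.9 TPM, and Gm13375 (1.85 and 1.92 TPM) starts 173 bases from Arhgap21 (11.8 and 10.2 TPM). All 559 exon bases of Gm43079 lie in exons of Acad9 on the same strand, so its 3.87 and 3.44 TPM cannot be told apart from Acad9 (10.8 and 12.2 TPM) by strand.

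Antisense RNAs were mostly the lower partner. In 44 pairs the antisense RNA was below the overlapped gene in both animals, in 22 it was above in both, and in 3 the order differed. The deposited credibility intervals of the 2 genes (their level is unknown) were apart in both libraries in 39 of the 44 and in 17 of the 22. The median log2 ratio was -0.94 in replicate 1 and -1.30 in replicate 2 (-1.12 ± 0.25). The median overlapped gene had 7.67 TPM. In 18 pairs it was at least 10-fold above the antisense RNA in both animals, and in 16 pairs the RNAs lay within 2-fold in both. Apart from the 3 mixed pairs, the order within a pair was the same in both animals.

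**Figure D2:**
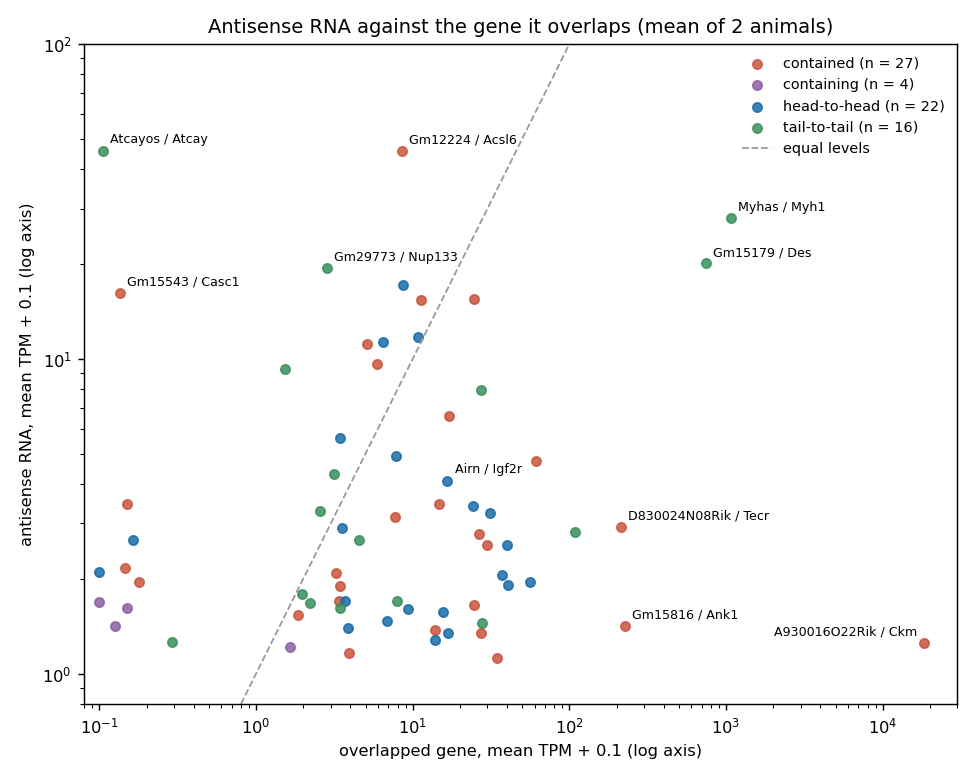
Mean TPM + 0.1 of each antisense RNA against that of the gene it overlaps (n = 69 pairs, log axes), coloured by geometry, with a dashed line of equal levels. Of the pairs 22 lie above the line in both animals, 11 of them over genes under 1 TPM, and A930016O22Rik over Ckm stands farthest to the right.

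The 22 antisense RNAs above their partner fell into 2 kinds of pair. In 11 pairs the overlapped gene was under 1 TPM in both libraries. Besides Atcayos, these included Gm15543 over Casc1 (0.02 and 0.05 TPM), Gm26740 (3.04 and 3.67 TPM) over Raet1e, a ligand of natural killer cell receptors (0.06 and 0.04 TPM), and Tmem147os (1.23 and 1.95 TPM) over Gapdhs, the sperm form of glyceraldehyde phosphate dehydrogenase, which was listed at 0 in both. Gm4673 (1.16 and 1.16 TPM) was above the lipoprotein receptor gene Lsr (0.18 and 0.20 TPM). Sp3os (2.53 and 1.46 TPM) was paired with Gm11084, listed at 0, by length of overlap, but it also overlaps Sp3, a zinc finger factor gene at 7 and 7.98 TPM. Hoxd3os1 (2.00 and 3.11 TPM) was likewise paired with Hoxd3 (0 and 0.13 TPM) and spans Hoxd8, at 10.4 and 15.5 TPM.

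In the other 11 pairs both genes were at 1 TPM or above. These were Gm12224, Gm29773, Gm15417, Mir133a-1hg, Tug1, Gm44040 over the calcium channel gene Itpr1, Gm12199 over the procollagen protease gene Adamts2, Hectd2os over the ubiquitin ligase gene Hectd2, Gm26782 over Tep1, Gm15545 over Bcl2l12 and E130307A14Rik over Traf3ip2. In the second transcript table the order was turned in both libraries for Mir133a-1hg (4.77 and 7.12 TPM, Mib1 17.5 and 15.3) and for Gm15545 (6.55 and 5.65 TPM, Bcl2l12 7.94 and 8.37). Hectd2os had 10.2 and 8.26 TPM and Hectd2 1.76 and 1.12 TPM, a log2 ratio of 2.62 ± 0.22. Its exons meet those of Hectd2 over 1834 bases, of which 116 are coding. Its leading transcript does not reach Hectd2, but carried only 23.1% ± 4.53 of the expression.

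At the other end stood A930016O22Rik, on the minus strand of chromosome 7 (19417466-19421417) within Ckm, the muscle creatine kinase. It had 1.17 and 1.13 TPM (42 and 40 counts), and Ckm had 17301 and 19515.5 TPM (536380 and 603064 counts). The log2 ratio was -13.84 ± 0.16. Of its exon bases 451 meet exons of Ckm and 417 of these are coding. An exon of it at chr7:19420058-19420232 is shown with the 126 bases complementary to Ckm coding sequence in capitals.
A930016O22Rik exon: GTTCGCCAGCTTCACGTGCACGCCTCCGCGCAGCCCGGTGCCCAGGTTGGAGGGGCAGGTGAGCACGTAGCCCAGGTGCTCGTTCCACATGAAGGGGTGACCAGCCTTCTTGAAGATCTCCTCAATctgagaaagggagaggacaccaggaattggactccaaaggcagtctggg

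The other low ratios belonged to Gm15816 within Ank1 (-7.32 ± 0.04), D830024N08Rik within Tecr, an enzyme of very long-chain fatty acid synthesis (-6.20 ± 0.39), Rab10os at the end of the vesicle GTPase gene Rab10 (-5.26 ± 0.14) and Myhas. Tecr had 198 and 228 TPM and D830024N08Rik 3.18 and 2.47 TPM, with no shared exon base. Rab10 had 103 and 113 TPM and Rab10os 2.79 and 2.65 TPM. The leading transcript of Rab10os does not reach Rab10, but carried only 27.7% ± 1.98 of the expression. By its gene span, each of these members lies opposite a gene that is far more abundant in this muscle.

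Reads of an abundant gene that are assigned to the wrong strand would appear as antisense RNA. Per the labels the spike-in profile is that for stranded libraries. Over all annotated antisense genes, each paired by longest overlap as above, 20 had a partner of at least 300 TPM, 17 of them with exonic overlap. Other overlapped genes were not searched. Of the 17, 7 were listed at 0 counts in both libraries, 10 had at most 3 counts in each library and 3 were members (A930016O22Rik, Myhas and Gm15179). Gm13938, with 91.9% of its exon bases in exons of titin, Ttn, was listed at 0 counts in both libraries, while Ttn had 2347 and 2255 TPM, and the second transcript table gave it 0.459 TPM in replicate 1. Others that are no members did have counts: A630019I02Rik, with 82.0% of its exon bases in exons of Cmya5, had 19 and 9, 9430073C21Rik over Myh2 had 33.2 and 22.1, and Gm49540 over Mb, myoglobin, had 8 and 20. The part of wrong-strand reads in the 42 and 40 counts of A930016O22Rik was not tested.

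Layouts were told apart by the gene spans. In head-to-head pairs the starts overlap, in tail-to-tail pairs the ends overlap, a contained antisense gene lies within its partner, and a containing one encloses it. The 22 head-to-head members had a median of 2.23 TPM under partners at 9.95 TPM, and 16 were below and 5 above the partner in both animals. Their median log2 ratio was -2.12 ± 0.08. The 27 contained members had a median of 2.46 TPM under partners at 11.1 TPM, a median log2 ratio of -1.31 ± 0.41, and 18 below against 8 above. The 16 tail-to-tail members had a median of 2.96 TPM and their partners 3.18 TPM, with 9 below and 6 above in both animals. Their median log2 ratio was -0.58 ± 0.09. Single ratios were as far apart as -5.26 for Rab10os and 2.78 for Gm29773, so this median does not mean that single pairs were close. The 4 containing members had a median of 1.42 TPM over partners at 0.0375 TPM. No test was made of the difference between layouts, since the members were chosen by level.

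Among head-to-head pairs the antisense start lay from 9 to 28353 bases inside the partner (median 1011), and within 1000 bases in 11. The nearest was 0610040B10Rik, 9 bases inside Zdhhc4, a palmitoyltransferase gene. 0610040B10Rik had 1.07 and 1.28 TPM, and Zdhhc4 had 13.8 TPM in both libraries. 1600020E01Rik (1.95 and 1.68 TPM) starts 74 bases inside Pcbp1, an RNA-binding protein gene at 39.8 and 41.2 TPM. Junos had 1.96 TPM in both libraries and starts 688 bases inside Jun, the transcription factor of the AP-1 complex (35.9 and 38.6 TPM). 1700008J07Rik starts 886 bases inside Srcap, a chromatin remodeller gene at 15.6 and 17.7 TPM. In each of these pairs the coding gene was the higher. These starts are those of the gene span, and the leading transcripts of 0610040B10Rik, 1600020E01Rik and Junos do not reach the partner. Those transcripts carried 50.8% ± 24.3, 43.1% ± 41.5 and 42.9% ± 10.8 of the expression, and other forms held the rest. Which forms prevail is therefore uncertain.

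The farthest was Airn, on the plus strand of chromosome 17 (12741311-12860136), which starts 28353 bases inside Igf2r, the receptor that clears insulin-like growth factor II. Airn is known to silence the paternal copy of Igf2r in many tissues. Airn had 3.78 and 4.22 TPM and Igf2r 16.5 and 16.6 TPM, and the log2 ratio of replicate 2 over replicate 1 was 0.15 for Airn. The tables do not separate the parental alleles, so the allele each RNA came from was not analysed here. Of 17 genes of imprinted or silencing loci looked up, 13 were found, and only 5 of these are typed antisense in M21. Among those 5 Airn was the only one at 1 TPM in both libraries. Kcnq1ot1 is also typed antisense, had 1972 and 1187 counts, and missed the level with 0.67 and 0.40 TPM. Tsix, the antisense partner of Xist, was listed at 0 in both. Of 13 Hox cluster noncoding RNAs looked up 12 were found, and Hoxd3os1 was the only one among the members.

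A start beside a coding gene that points the other way was also counted, a comparison chosen after the values of Myhas were seen. The leading transcript of 14 members starts within 1000 bases of a protein-coding start on the other strand and runs away from it, at 39 to 998 bases (median 169.5). The coding genes included Tmem147 (39 bases from Tmem147os; 97.1 and 102 TPM), Flcn, a regulator of nutrient signalling (64 bases from Gm16062), Rev3l, a DNA polymerase gene (112 bases from E130307A14Rik), Setd5 (155 bases from Gt(ROSA)26Sor, the RNA of the Rosa26 locus) and Prmt1, an arginine methyltransferase gene (405 bases from Gm15545). Brip1os was the case with a low neighbour, starting 177 bases from Brip1 at 0.07 and 0.11 TPM. Taken by gene start, 12 of the 74 members (16.2%) had such a neighbour, against 6.73% of all annotated antisense genes and 9.73% of those with a read. Except for Pcbp1 and Zdhhc4, these coding genes were not the ones with which the members were paired by overlap.

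Exons of the pair met in 49 of the 69 pairs, over coding bases in 28, and in 8 pairs at least 50% of the antisense exon bases did so. Summed over the pairs, 4.26% of antisense exon bases lay over coding exons, 10.4% over UTR or noncoding exons, 33.9% over introns and 51.4% outside the partner. Of exon bases in contained members 84.9% lay over introns, and only 11 of the 27 met an exon. Of exon bases in tail-to-tail members 14.4% lay over UTR or noncoding exons and 6.51% over coding bases, and 15 of the 16 met an exon. Head-to-head members had 0.952% over coding bases. Counted by the leading transcript alone, 60 of the 69 still reached the span of the partner, 39 met one of its exons and 22 met coding bases.

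**Figure D3:**
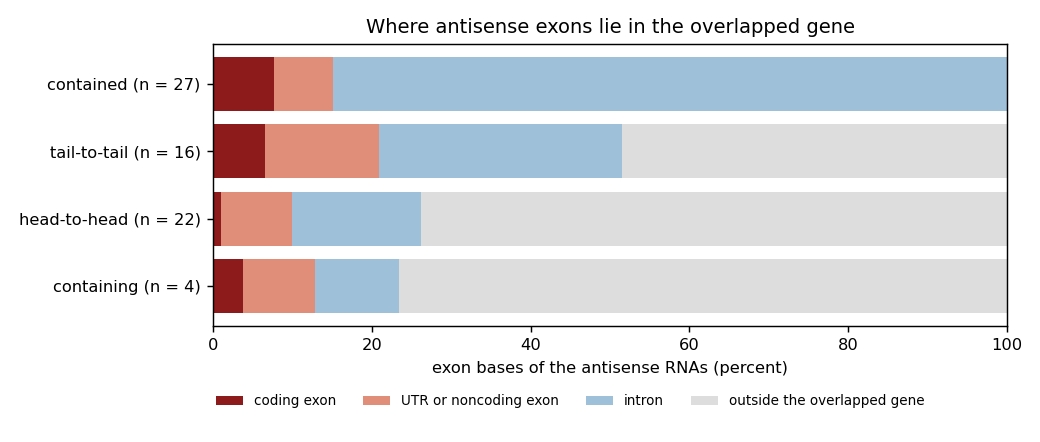
Share of the exon bases of antisense RNAs, in percent, that lie over coding exons, UTR or noncoding exons and introns of the overlapped gene or outside it, by layout. Introns take 84.9% in contained members, whereas 73.8% of head-to-head bases lie outside the partner.

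Among the 5 longest exonic overlaps, 1110002L01Rik (1.49 and 1.70 TPM) meets 2617 noncoding exon bases of the kinesin gene Kif3c (6.44 and 9.30 TPM). Hectd2os follows with the 1834 bases given above. Gm4673 meets Lsr over 946 bases, 861 of them coding. Gm15816 meets Ank1 over 862 bases, 405 of them coding, and 9130221H12Rik (1.75 and 1.36 TPM) meets Gsk3a, a glycogen synthase kinase gene at 23.1 and 25.95 TPM, over 820 bases, 372 of them coding. In the Hectd2 and Lsr pairs the antisense RNA was the higher, and in the other 3 the coding gene was.

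Some members overlapped genes in lists of contractile, calcium handling, energy metabolism and transcription and clock genes. Not all of the regulators are particular to muscle. Of these 156 genes 5 (3.21%) were partners of a member. The shares were 68 of all 22028 protein-coding genes (0.309%) and 57 of the 10041 at 1 TPM in both libraries (0.568%). The lists were chosen with earlier results known, and shares of genes with any annotated antisense gene were not compared, so no enrichment is read from these shares. Of 48 contractile and sarcomere genes 2 were partners of a member (Myh1 and Des), of 35 energy metabolism genes 1 (Ckm), of 46 transcription and clock regulators 2 (Sox6 and Jun) and of 27 excitation and calcium handling genes none. In the whole annotation 12 antisense genes lie over 10 of the contractile genes, and 9 over 6 of the calcium handling genes, so most of these were below 1 TPM here. Sox6 encodes a repressor of slow fibre genes and had 58.3 and 63.8 TPM. Sox6os, contained in it without exonic overlap, had 4.14 and 5.11 TPM, a log2 ratio of -3.70 ± 0.12. Gm47320 (1.06 and 1.06 TPM, 10 counts in each) lies in the activin receptor gene Acvr2b, and Gm47898 in the dystrobrevin gene Dtna (33.4 and 35.9 TPM).

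Between the animals the members were close. The rule of 1 TPM in both libraries left out 33 antisense genes that reached it in only 1, so this closeness is partly set by the selection. The median log2 ratio of replicate 2 over replicate 1 was 0.01, as over all 10893 genes at 1 TPM in both libraries (0.01), and 0.05 over the overlapped genes. Of the members 38 were higher in replicate 2, 33 lower and 3 equal, and 61 lay within 1.5-fold. Ratios ran from -0.80 (Frmd8os) to 1.16 (Gm15543) on the log2 scale. The median absolute log2 ratio was 0.23 in the members, 0.18 in lincRNAs and 0.17 in protein-coding genes of the same level, whose median mean counts were 69.8, 93 and 512. Credibility intervals, which cover counting and read assignment, were apart between the animals for 8 members, 4 in each direction, while they were apart for 18.6% of all genes at that level.

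To be counted as different between the animals, a gene had to have a mean of 50 counts or more, a ratio of at least 2-fold and intervals apart. This held for 1 of the 44 members with enough counts, and 2.21% of all genes so tested passed (0.447% higher in replicate 2 and 1.76% higher in replicate 1). None of the 57 overlapped genes tested passed. The share among the members is near that of all genes. The 1 member was Gm15543, with 9.91 TPM (82 counts) in replicate 1 and 22.3 TPM (185 counts) in replicate 2. Its intervals were 7.75 to 11.96 and 18.9 to 25.2 TPM. In the second transcript table it had 1.29 and 6.71 TPM, so its direction held while its level there was far lower.

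At 1.5-fold, 5 of the 44 members with enough counts passed, and 6.43% of all genes so tested did. Gm15543, C130080G10Rik and Uckl1os (log2 ratio 0.66) were higher in replicate 2, and Foxo6os (-0.69) and Gm11266 (-0.72) were higher in replicate 1. Foxo6os had 3.81 and 2.33 TPM, and Gm11266 3.08 and 1.83 TPM. Nfib, the transcription factor gene that contains Gm11266, had 28.9 and 30.3 TPM, and the log2 ratio of Uckl1 was -0.18. Schwann cell, tendon, fibroblast and macrophage markers were lower in replicate 2 in the same libraries. Their part in these differences was not tested.

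Other members with large ratios had too few counts to be judged. Higher in replicate 2 were Tmem147os (31.5 and 52.8 counts, log2 ratio 0.62) and Hoxd3os1 (32 and 50 counts, 0.61). Lower in replicate 2 were Frmd8os (26 and 14 counts, -0.80), Sp3os (35 and 20 counts, -0.75) and Gm28609 (23 and 14 counts, -0.68).

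**Figure D4:**
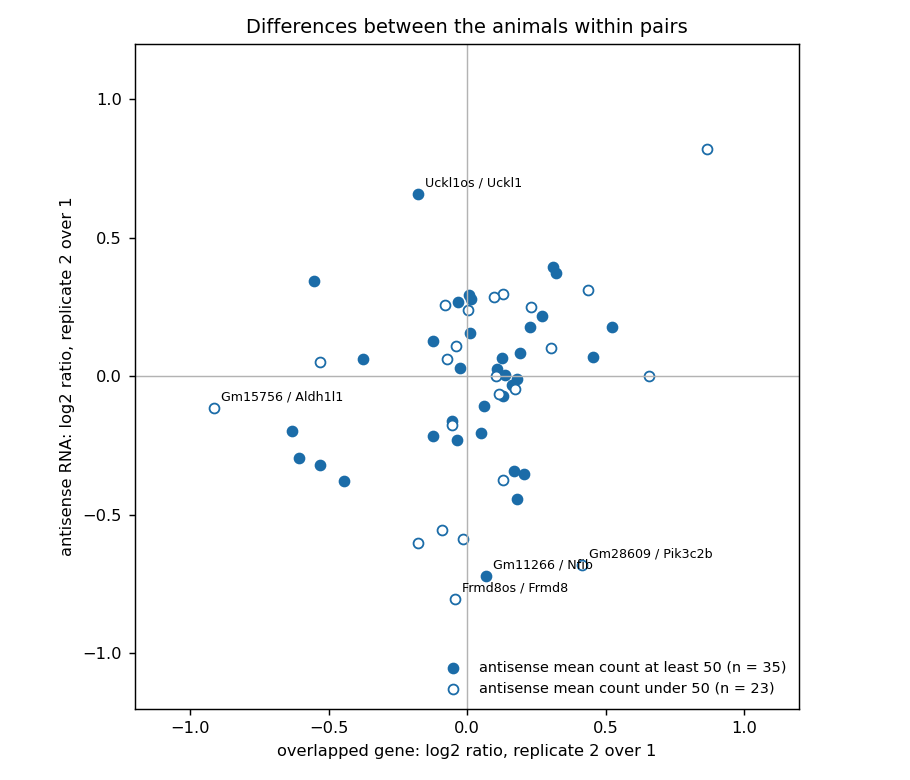
Log2 ratio of replicate 2 over replicate 1 for each antisense RNA against that of the gene it overlaps, for the 58 pairs with both genes at 1 TPM or above, filled where the antisense RNA had a mean count of at least 50 (n = 35). The points spread around 0 on both axes, with Uckl1os high over an Uckl1 near 0.

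Whether an antisense RNA and its partner moved together between the animals could be described over the 58 pairs with both genes at 1 TPM or above. The ratios had the same sign in 33 of the 58. Pearson's r was 0.25 (Spearman's rho 0.25), and 0.19 in the 35 pairs with at least 50 antisense counts. Levels of antisense RNAs and partners had an r of 0.06. All points share the same 2 libraries, so these values describe the libraries and no relation is read from them.

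The second transcript table, which was made from the reads and a transcript index, gave most members similar levels. Its TPM sums over other features, so it was scaled by the median ratio of genes with at least 10 TPM, a factor of 1.54 in replicate 1 and 1.41 in replicate 2. After scaling 68 of the 74 lay within 2-fold of the gene table by the mean of the libraries, 4 were lower and 2 higher, and r of the log2 levels was 0.84 across the members. The 4 lower were Gm15543, Mir133a-1hg, AC157910.6 and Gm20400, which was listed at 0 in both libraries there against 1.68 and 2.45 TPM in the gene table. The 2 higher were Gm47320 (5.46 and 4.94 TPM before scaling) and Gm15756 (6.19 and 7.53 TPM). In each library taken alone 66 lay within 2-fold. A930016O22Rik had 1.37 and 0.421 TPM there before scaling, under the 1 TPM of the selection in replicate 2, and Gm28610 had 1.74 and 2.36 TPM. The levels of these 8 are uncertain.

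**Figure D5:**
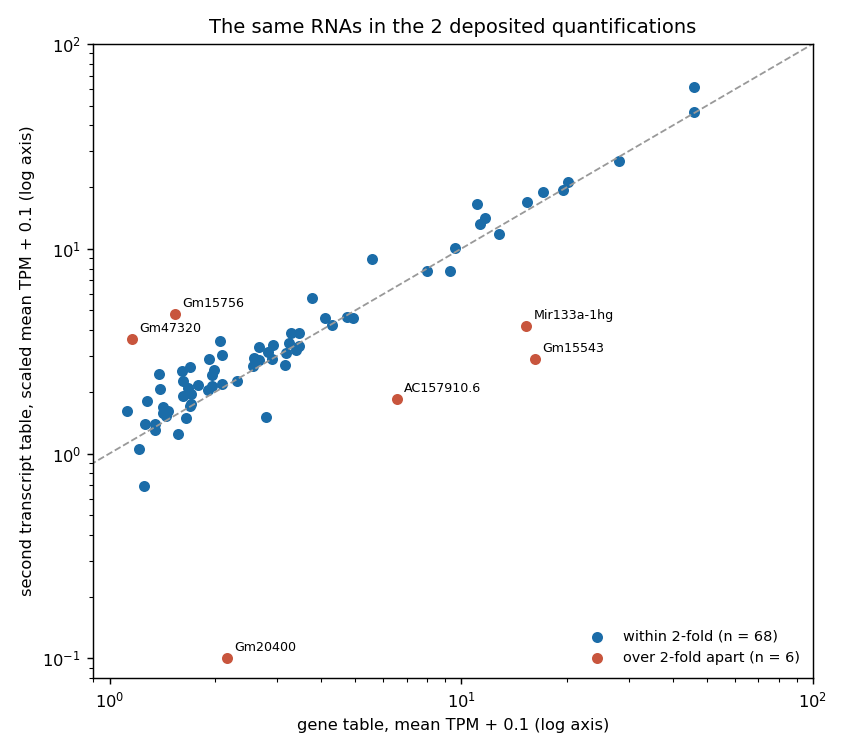
Mean TPM + 0.1 of each of the 74 members in the gene table against the scaled second transcript table (log axes), with a dashed line of equal levels. The 68 members within 2-fold follow the line, and the 6 named ones do not.

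Several transcripts are annotated for 41 members. For 15 of them the leading transcript held at least 75% of the expression in both libraries, and for 29 the same transcript led in both kinds of table. Tug1 had its leading transcript at 38.6% ± 6.98, and that transcript had 0.145% in replicate 2 of the second transcript table, so its forms are uncertain. Exon bases were shared with a gene on the same strand in 7 members.

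Promoter windows were at hand in RefSeq for 46 members, and for 35 of them the RefSeq start lay within 500 bases of the M21 start. These 35 windows had a median GC content of 58.3%, against 52.7% for all 32851 windows in the table. Motifs were searched on both strands and were chosen as textbook motifs of basal and muscle promoters. The MEF2 motif, named for the muscle transcription factors that bind it, matched in 5 of the 35 (14.3%), against 1.86% of all windows. The 5 were Atcayos, Gm15179, C130080G10Rik, Gm32352 and Gm28609, of which the first 3 are printed above. The matches of Gm15179 and C130080G10Rik lie between starts that point apart, as given above. TATAAA matched in 11.4% (13.6% of all windows), the E-box CAGCTG in 14.3% (16.3%), CATTCC, the core of the TEAD site, in 20% (14.7%), and the CArG box of serum response factor in 2.86% (1.63%). These are letter matches in a small set, and no binding was measured. The windows of all genes were taken whatever their level in this muscle, and a share for genes at 1 TPM here was not compared.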

How the data were processed

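Total RNA-seq of 2 gastrocnemius samples was analysed from 300 ng of RNA each. Which aligner and quantifiers were used is information not given in the sources used here. Build mm10 and annotation M21 are named in the deposited notes. The authors deposited expected counts, TPM, posterior mean TPM and FPKM per gene and per transcript, with TPM credibility intervals of unstated level, and a second transcript table with estimated counts and TPM. Whether the counting used strand is not stated for the tables. Nothing was pooled across animals.

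Members, gene lists, motifs and the rules for named genes and for overlapped genes were chosen with earlier results of these data known. Named genes were the 12 highest members, those with the 5 highest and 5 lowest ratios over the partner and between animals, those nearest the threshold, those over listed genes, the 3 with the largest gap between tables and the 5 with the longest exonic overlap. 1 pair that this rule names is not reported here. Coordinates count from 1. Python 3.11.15, pandas 2.3.3 and NumPy 2.4.6 were used, a pseudocount of 0.1 TPM and no filter beyond the 1 TPM rule. The call rule and the layouts were tested on simulated data. Alternatives were another table, unit, scaling, pseudocount, threshold, partner rule and leaving out either replicate.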

Additional observations from a re-analysis of the deposited data

How the results depend on the processing

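The members number 74 by a threshold of 1 TPM, and most limits come from that threshold, from few counts and from n = 2. By the second transcript quantification, taken without the scaling given above, 117 antisense genes reached 1 TPM in both libraries. There the 74 members summed to 658 TPM, their median log2 ratio over the overlapped gene was -1.32, their median between animals was -0.0956 and r of the animals' ratios was 0.13. Rescaling over nuclear protein-coding genes gave 155 genes at the threshold and a sum of 1037 TPM over the 74, and FPKM gave a sum of 357 over the 74. A threshold of 2 TPM left 38 genes with 372 TPM and a median ratio of -0.46. With no threshold 976 genes summed to 567 TPM, with a median ratio of -3.92, 76 genes above their partner and an r of 0.0795. The median ratio was -0.76 with a pseudocount of 1 and -1.47 with the highest overlapping gene as partner. The number of members that differed between animals was 0 when 200 counts were required and 5 at 1.5-fold. Leaving out a replicate gave 90 to 91 genes at the threshold and, over the 74, a median ratio of -1.30 to -0.94, 23 to 24 genes above their partner and a sum of 416 to 440 TPM. Of 61 values under alternatives 20 moved, and they are those given here before the values with a replicate left out. The other 41 include the values with a replicate left out. They stayed within 1.5 times for counts and within the spread between animals or 0.1 for other values. Among them were 90 genes at the threshold with the posterior mean TPM, 64 with FPKM, and 15 to 24 genes above their partner. None changed direction except the median between animals, which was near 0. Sums and counts at the threshold move with the scale, and the rescaling multiplied all TPM of a library by the same factor. The cause of the remaining shifts was not tested. The number that differed could not be had from the second table, which has no intervals. No paired analysis was possible because there is 1 group.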
